A study of Mus musculus with 20 samples.

Results

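Chemokines and chemokine receptors were followed in mouse islets and islet grafts on 20 Affymetrix MoGene 1.0 ST arrays. The genes were taken by symbol (Ccl, Ccr, Cxcl, Cxcr or Cx3cl followed by a number). This gave 48 of the 19938 genes with a probe set of their own, namely 33 ligands and 15 receptors, each read from a probe set that carries no other symbol (the brightest on average where a gene had several). Ccl21a, Ccl21b, Ccl27a and Ccl27b lie only on probe sets that carry several symbols, and they were not followed. Male islet grafts came from P12.5 hosts (pregnancy day 12.5, n = 3) and from non-pregnant hosts (NP, n = 3), female islet grafts likewise (P12.5, n = 3, and NP, n = 3), and islets that stayed in the pancreas came from P12.5 females (n = 4) and NP females (n = 4). All were C57bl6/J. The grafts sat under the kidney capsule of female hosts that had been made diabetic with streptozotocin and whose blood glucose the islets had restored, and male or female means the sex of the islet donor. The islet arrays are labelled as a reanalysis and no streptozotocin is described for those mice, so array batch, streptozotocin, the kidney site and transplantation cannot be told apart. Male grafts also differ from the islets in donor sex, which cannot be told apart from these either.

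Chemokines are small secreted or membrane-bound proteins that guide the movement of leukocytes. They act through receptors with many membrane passes that couple to Gi proteins. Some are made steadily and position cells in tissues and lymphoid organs, and others are switched on by interferon, tumour necrosis factor or tissue damage. In islet transplantation they are known as signals that draw monocytes, macrophages and lymphocytes to the graft, and most of their receptors are made by those cells. In bulk samples such as these, a change in the number of cells of a type and a change in RNA per cell cannot be told apart.

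Promoter sequence is shown for 3 CXC ligand genes of chromosome 5 because their calls differed in the grafts. Cxcl10 and Cxcl9 were higher in grafts in all 4 comparisons with islets, and Cxcl1 passed the test in none. The 250 bases before the gene start are given 5′ to 3′ from RefSeq (GRCm38.p6). Capitals mark letters that match an NF-κB motif (GGGNNNTTCC) or an interferon-response motif (GAAANNGAAA) on either strand.
Cxcl10, chr5:92348890-92349139, minus strand: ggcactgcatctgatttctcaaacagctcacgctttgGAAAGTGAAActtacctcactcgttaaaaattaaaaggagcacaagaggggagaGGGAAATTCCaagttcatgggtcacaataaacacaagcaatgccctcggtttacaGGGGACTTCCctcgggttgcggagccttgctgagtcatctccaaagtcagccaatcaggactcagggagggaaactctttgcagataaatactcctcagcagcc
Cxcl9, chr5:92328080-92328329, minus strand: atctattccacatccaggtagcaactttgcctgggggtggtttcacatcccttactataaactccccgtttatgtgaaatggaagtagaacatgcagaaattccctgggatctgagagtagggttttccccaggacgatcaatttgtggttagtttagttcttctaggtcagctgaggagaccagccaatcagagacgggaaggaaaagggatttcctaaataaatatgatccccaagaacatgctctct
Cxcl1, chr5:90890995-90891244, plus strand: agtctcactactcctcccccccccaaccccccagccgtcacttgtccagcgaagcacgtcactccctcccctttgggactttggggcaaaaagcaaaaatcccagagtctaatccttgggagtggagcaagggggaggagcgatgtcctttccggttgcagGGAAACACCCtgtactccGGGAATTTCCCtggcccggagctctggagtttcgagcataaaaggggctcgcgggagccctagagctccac

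In windows of 300 bases (250 before and 50 after the start), the NF-κB letters occurred in 5.56% of all 32851 RefSeq promoters and the interferon letters in 3.44%. RefSeq windows were at hand for 34 of the 48 members (36 windows). Of these, 9 held the NF-κB letters and 3 the interferon letters. Cxcl10 held both, with the interferon letters 213 bases and the NF-κB letters 159 and 104 bases before the start. Cxcl1, Cxcl2 and Cxcl3, neutrophil-attracting ligands that lie close together on chromosome 5, each held 2 separate NF-κB stretches. Cxcl14 and Ccl19 held the interferon letters, and Ccl20, Ccr3, Ccl1, Ccl9 and Ccr6 the NF-κB letters. The Cxcl9 window held neither. Another motif (TTCNNNGAA, bound by STAT proteins) occurred in 3 member windows (Ccl17, Cxcl14 and Ccr6) and in 8.30% of all windows. These are matches of letters only.

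The deposited values are log2 levels per probe set, and they are comparable between arrays for 1 probe set but not between probe sets. Array medians lay between 5.9 and 6.0 and lower quartiles between 4.7 and 4.9. A level of 5.9 was not exceeded in any array by 12 ligands and 8 receptors (20 of the 48 members). Above that level were 20 ligands in at least 1 graft array and 10 in at least 1 islet array. For the receptors these numbers were 7 and 4. The group with the highest mean was NP male grafts for 11 of 15 receptors and for 13 of 33 ligands. The arrays of a group correlated with each other at r = 0.971 to 0.989 across probe sets, and beta cell markers such as Ins1 and Pdx1 averaged 10.60 to 11.31 in all 20 arrays.

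Grafts carried higher levels of many chemokine transcripts than islets, and no member was lower by the test. A member was called at an adjusted p under 0.05 (limma, Benjamini-Hochberg over all 35511 probe sets) and a fold change of at least 1.5. In P12.5 male grafts 16 of 48 members rose (12 ligands, 4 receptors), against 4.7% of all probe sets that rose (7.26% called either way). In NP male grafts 23 rose (15 ligands, 8 receptors), against 5.94% (11.2% either way). In P12.5 female grafts 16 rose (12 ligands, 4 receptors), against 2.83% (4.05% either way). In NP female grafts 14 rose (11 ligands, 3 receptors), against 5.99% (11% either way). Taken over genes by their own probe set, 5.79%, 6.88%, 4.03% and 6.5% rose in the same 4 comparisons. The share of members that rose was higher than the background in each comparison. For NP male grafts the split of all calls into higher and lower was 2108 and 1865, and 2576 and 1414 once array medians were subtracted.

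In all, 24 members rose in at least 1 of the 4 comparisons and 12 rose in all of them. The same counts were not made over all probe sets, so no background stands beside them. The 12 are the ligands Ccl5, Ccl6, Ccl8, Ccl9, Cxcl9, Cxcl10, Cxcl12, Cxcl14 and Cxcl16 and the receptors Ccr2, Cxcr3 and Cxcr6. The comparisons within NP or within P12.5 share their islet arrays, so they are not independent of each other. The median change over the 48 members was 0.15 in P12.5 male grafts, 0.51 in NP male grafts, 0.18 in P12.5 female grafts and 0.07 in NP female grafts, beside -0.08, -0.07, -0.07 and -0.07 over all genes.

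**Figure D1:**
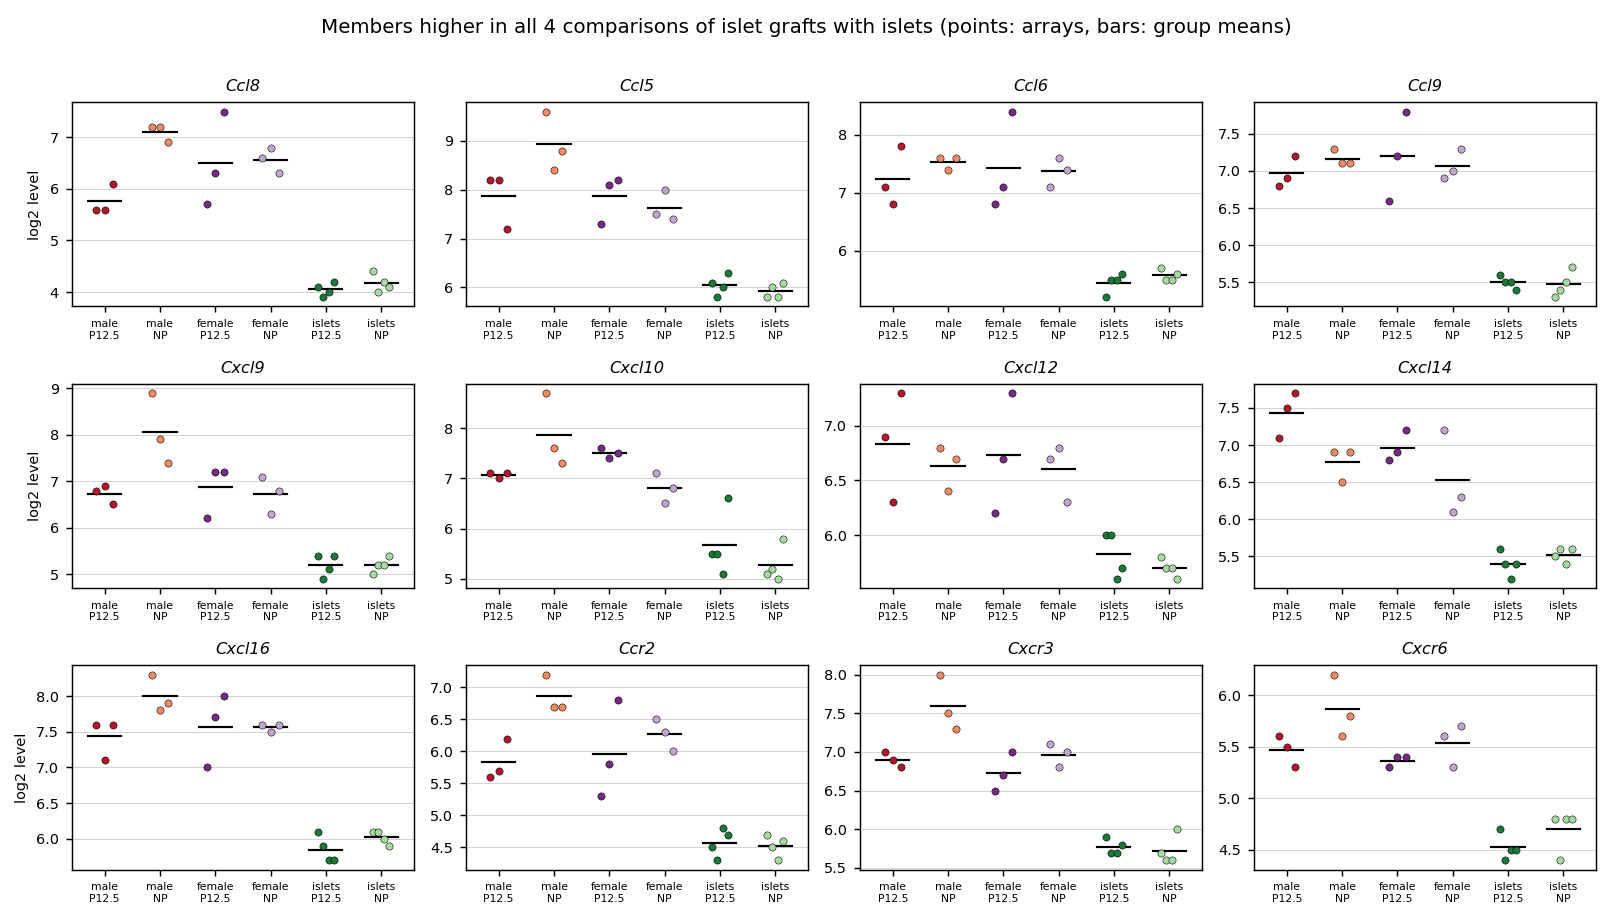
Log2 level (vertical axis, own scale in each panel) of the 12 members that rose in all 4 comparisons of islet grafts with islets. Each point is 1 array and each bar a group mean, with P12.5 left of NP within male grafts, female grafts and islets. For Ccl5, 3.01 log2 units separate the means of NP male grafts and NP islets.

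Ccl2, Ccl7, Ccl8 and Ccl12 were listed together as monocyte attractants, and among them Ccl8 moved most. Ccl8 had 5.6, 5.6 and 6.1 in P12.5 male grafts, 7.2, 7.2 and 6.9 in NP male grafts, 5.7, 6.3 and 7.5 in P12.5 female grafts and 6.6, 6.8 and 6.3 in NP female grafts, against 4.1, 3.9, 4.0 and 4.2 in P12.5 islets and 4.4, 4.0, 4.2 and 4.1 in NP islets. Every graft array was above every islet array. The change against islets was 1.72 ± 0.27 in P12.5 male grafts (adjusted p = 0.000641) and 2.92 ± 0.27 in NP male grafts (adjusted p = 1.99e-06). It was 2.45 ± 0.27 in P12.5 female grafts (adjusted p = 3.06e-05) and 2.39 ± 0.27 in NP female grafts (adjusted p = 2.76e-05). Ccl12, another monocyte attractant, had 5.2, 4.8 and 5.4 in P12.5 male grafts, 5.6, 5.3 and 5.6 in NP male grafts, 4.9, 5.3 and 6.3 in P12.5 female grafts and 5.5, 5.5 and 4.6 in NP female grafts, against 4.3, 4.7, 4.6 and 4.6 in P12.5 islets and 4.5, 4.6, 4.5 and 4.5 in NP islets. Only the lowest NP female graft array, at 4.6, reached into the islet range. Ccl12 rose by 0.97 ± 0.26 in NP male grafts (adjusted p = 0.0112) and 0.95 ± 0.26 in P12.5 female grafts (adjusted p = 0.0352). In NP female grafts its change of 0.675 was not called (adjusted p = 0.05975). It passed there under 5 alternatives, such as without NP female graft array 3 (0.975, adjusted p = 0.0148). The P12.5 female value was lost without any 1 of the 4 P12.5 islet arrays, and without female graft array 2 or 3 (0.55, adjusted p = 0.207, without array 3). Ccl2 and Ccl7, the other monocyte attractants of the list, were called in none of the 4 comparisons, with changes between -0.11 and 0.24 for Ccl2 and between -0.23 and 0.49 for Ccl7.

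Ccl3, Ccl4, Ccl5, Ccl6 and Ccl9 attract macrophages and T cells, most of them through CCR1. Ccl5, a product of T cells, NK cells and macrophages, had 8.2, 8.2 and 7.2 in P12.5 male grafts, 9.6, 8.4 and 8.8 in NP male grafts, 7.3, 8.1 and 8.2 in P12.5 female grafts and 7.5, 8.0 and 7.4 in NP female grafts, against 6.1, 5.8, 6.0 and 6.3 in P12.5 islets and 5.8, 6.0, 5.8 and 6.1 in NP islets. The groups of grafts and islets did not overlap, and the NP male grafts were highest. The change was 1.82 ± 0.28 in P12.5 male grafts (adjusted p = 0.000518) and 3.01 ± 0.28 in NP male grafts (adjusted p = 1.99e-06). It was 1.82 ± 0.28 in P12.5 female grafts (adjusted p = 0.000768) and 1.71 ± 0.28 in NP female grafts (adjusted p = 0.000451). Ccl6, a macrophage product known from rodents, had 7.1, 6.8 and 7.8 in P12.5 male grafts, 7.6, 7.4 and 7.6 in NP male grafts, 6.8, 7.1 and 8.4 in P12.5 female grafts and 7.1, 7.6 and 7.4 in NP female grafts, against 5.2, 5.5, 5.5 and 5.6 in P12.5 islets and 5.7, 5.5, 5.5 and 5.6 in NP islets. Grafts and islets stood apart in every group, with P12.5 female array 3 highest. Ccl6 rose by 1.78 to 1.98 over the 4 comparisons, with the largest adjusted p at 0.000538 in P12.5 male grafts. Ccl9, its close relative, had 6.8, 6.9 and 7.2 in P12.5 male grafts, 7.3, 7.1 and 7.1 in NP male grafts, 6.6, 7.2 and 7.8 in P12.5 female grafts and 6.9, 7.0 and 7.3 in NP female grafts, against 5.6, 5.5, 5.5 and 5.4 in P12.5 islets and 5.3, 5.4, 5.5 and 5.7 in NP islets. Its 12 graft values lay between 6.6 and 7.8 and its 8 islet values between 5.3 and 5.7. The change ran from 1.47 ± 0.19 in P12.5 male grafts (adjusted p = 0.000111) to 1.70 ± 0.19 in P12.5 female grafts (adjusted p = 3.59e-05).

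Ccl3 (MIP-1α) had 5.9, 5.7 and 5.9 in P12.5 male grafts, 6.6, 6.0 and 5.6 in NP male grafts, 5.5, 5.6 and 6.3 in P12.5 female grafts and 5.9, 5.6 and 5.7 in NP female grafts, against 4.8, 5.3, 4.9 and 5.5 in P12.5 islets and 5.1, 4.9, 5.1 and 4.9 in NP islets. The separation was small and P12.5 islet array 4 (5.5) lay level with the lowest P12.5 female graft array. Ccl3 rose by 0.71 ± 0.22 in P12.5 male grafts (adjusted p = 0.0374), 1.07 ± 0.22 in NP male grafts (adjusted p = 0.00194) and 0.73 ± 0.22 in NP female grafts (adjusted p = 0.0193). The P12.5 male value fell short of the test without P12.5 islet array 1 or 3 or without male graft array 1 or 3 (adjusted p up to 0.139), and the NP female value without NP female graft array 1 (adjusted p = 0.0686). In P12.5 female grafts the change of 0.675 was not called. It passed after a second quantile normalization (adjusted p = 0.0403) and with the mean of a gene's probe sets (adjusted p = 0.0445). Ccl4, the next gene along the chromosome, stayed between 5.2 and 5.7 in all 20 arrays and was not called.

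Ligand genes that lie side by side differed in their calls. Ccl2, Ccl7, Ccl11, Ccl12, Ccl8 and Ccl1 follow each other on chromosome 11 in the RefSeq order of protein-coding genes, and in this run of 6 Ccl8 was called in 4 comparisons, Ccl12 in 2 and the others in 0. In the run of 5 formed by Ccl5, Ccl9, Ccl6, Ccl3 and Ccl4, the first 3 were called in 4 comparisons, Ccl3 in 3 and Ccl4 in 0.

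CXCL9, CXCL10 and CXCL11 are induced by interferon and attract activated T cells and NK cells through CXCR3. Cxcl9 had 6.8, 6.9 and 6.5 in P12.5 male grafts, 8.9, 7.9 and 7.4 in NP male grafts, 6.2, 7.2 and 7.2 in P12.5 female grafts and 7.1, 6.3 and 6.8 in NP female grafts, against 5.4, 4.9, 5.1 and 5.4 in P12.5 islets and 5.0, 5.2, 5.2 and 5.4 in NP islets. NP male grafts were highest, and grafts and islets did not overlap. Cxcl9 rose by 1.53 ± 0.29 in P12.5 male grafts (adjusted p = 0.00249) and 2.87 ± 0.29 in NP male grafts (adjusted p = 5.40e-06). It rose by 1.67 ± 0.29 in P12.5 female grafts (adjusted p = 0.00226) and 1.53 ± 0.29 in NP female grafts (adjusted p = 0.00128). Cxcl10 had 7.1, 7.0 and 7.1 in P12.5 male grafts, 8.7, 7.6 and 7.3 in NP male grafts, 7.6, 7.4 and 7.5 in P12.5 female grafts and 7.1, 6.5 and 6.8 in NP female grafts, against 5.5, 5.5, 5.1 and 6.6 in P12.5 islets and 5.1, 5.2, 5.0 and 5.8 in NP islets. P12.5 islet array 4 (6.6) stood above the other islet arrays and above the lowest NP female graft array (6.5), but below all P12.5 graft arrays. Cxcl10 rose by 1.39 ± 0.32 in P12.5 male grafts (adjusted p = 0.00761) and 2.59 ± 0.32 in NP male grafts (adjusted p = 2.89e-05). It was 1.82 ± 0.32 in P12.5 female grafts (adjusted p = 0.00202) and 1.52 ± 0.32 in NP female grafts (adjusted p = 0.00229). Cxcl11 did not move with these 2 ligands: its 12 graft values lay between 4.8 and 5.6, its 8 islet values between 4.7 and 5.5, and its changes between -0.12 and 0.07.

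Of the 6 measured ligands that are mostly made steadily, Cxcl14 and Cxcl12 rose in all 4 comparisons. Cxcl14, made by epithelial and stromal cells, had 7.1, 7.5 and 7.7 in P12.5 male grafts, 6.9, 6.5 and 6.9 in NP male grafts, 6.8, 6.9 and 7.2 in P12.5 female grafts and 7.2, 6.1 and 6.3 in NP female grafts, against 5.6, 5.4, 5.2 and 5.4 in P12.5 islets and 5.5, 5.6, 5.4 and 5.6 in NP islets. All graft arrays lay above all islet arrays. The change was 2.03 ± 0.21 in P12.5 male grafts (adjusted p = 7.70e-06) and 1.24 ± 0.21 in NP male grafts (adjusted p = 0.000393). It was 1.57 ± 0.21 in P12.5 female grafts (adjusted p = 0.000141) and 1.01 ± 0.21 in NP female grafts (adjusted p = 0.00201). Cxcl12, the stromal ligand of CXCR4, had 6.9, 6.3 and 7.3 in P12.5 male grafts, 6.8, 6.4 and 6.7 in NP male grafts, 6.2, 6.7 and 7.3 in P12.5 female grafts and 6.7, 6.8 and 6.3 in NP female grafts, against 6.0, 6.0, 5.6 and 5.7 in P12.5 islets and 5.8, 5.7, 5.7 and 5.6 in NP islets. The lowest graft arrays (6.2) were just above the highest islet arrays (6.0). Its changes were 1.01 ± 0.23 in P12.5 male grafts (adjusted p = 0.00757) and 0.93 ± 0.23 in NP male grafts (adjusted p = 0.00697). They were 0.91 ± 0.23 in P12.5 female grafts (adjusted p = 0.0243) and 0.90 ± 0.23 in NP female grafts (adjusted p = 0.00831). The P12.5 female call was lost without P12.5 islet array 3 or 4 or female graft array 2 or 3 (0.63, adjusted p = 0.157, without array 3), and the P12.5 male call without male graft array 3 (0.78, adjusted p = 0.0709).

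Cxcl13, which attracts B cells through CXCR5, had 7.2, 6.0 and 5.8 in P12.5 male grafts, 6.5, 5.8 and 6.4 in NP male grafts, 6.2, 5.8 and 6.8 in P12.5 female grafts and 5.9, 5.7 and 5.5 in NP female grafts, against 5.0, 5.0, 5.1 and 5.3 in P12.5 islets and 5.3, 5.2, 5.1 and 5.1 in NP islets. Values spread widely within the graft groups, but none reached into the islet range of 5.0 to 5.3. Cxcl13 rose by 1.23 ± 0.27 in P12.5 male grafts (adjusted p = 0.00601), 1.06 ± 0.27 in NP male grafts (adjusted p = 0.0089) and 1.17 ± 0.27 in P12.5 female grafts (adjusted p = 0.015), and the P12.5 female call was lost without female graft array 3 (0.90, adjusted p = 0.107). Ccl19, a CCR7 ligand of lymphoid stroma and mature dendritic cells, had 7.0, 7.3 and 6.8 in P12.5 male grafts, 8.6, 8.0 and 7.8 in NP male grafts, 6.5, 7.6 and 7.5 in P12.5 female grafts and 7.6, 7.3 and 6.7 in NP female grafts, against 6.4, 6.6, 6.4 and 6.6 in P12.5 islets and 6.1, 6.6, 6.6 and 6.6 in NP islets. NP male grafts were above all other arrays. Ccl19 rose by 1.66 ± 0.26 in NP male grafts (adjusted p = 0.000211) and 0.72 ± 0.26 in NP female grafts (adjusted p = 0.0422). The NP female call was lost without any 1 of the 4 NP islet arrays or without female graft array 1 or 2 (0.53, adjusted p = 0.179, without array 1). In P12.5 female grafts the change of 0.70 was not called (adjusted p = 0.107), but it passed without P12.5 female graft array 1 (1.05, adjusted p = 0.01415). The 5 probe sets of Ccl19 gave changes of 1.39 to 1.66 in NP male grafts, and near-identical gene copies may share their signal.

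Ccl28, an epithelial ligand of CCR10, had 6.1, 6.1 and 5.5 in P12.5 male grafts, 6.3, 7.2 and 6.7 in NP male grafts, 6.4, 6.6 and 6.0 in P12.5 female grafts and 6.8, 6.4 and 6.7 in NP female grafts, against 6.2, 6.4, 5.9 and 6.6 in P12.5 islets and 6.3, 6.2, 6.0 and 5.5 in NP islets. NP male grafts overlapped NP islets at 6.3. Ccl28 rose by 0.73 ± 0.24 in NP male grafts (adjusted p = 0.0299), a call lost without NP islet array 3 or 4 or male graft array 2 or 3 (0.50, adjusted p = 0.165, without array 2). NP female grafts did not overlap NP islets, and their change of 0.63 was past 1.5-fold but not called. That change passed under several alternatives, such as without NP islet array 1 (0.73, adjusted p = 0.0405). Ccl25, which guides cells to gut and thymus, was not called (changes between -0.23 and 0.05).

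Cxcl16 and Cx3cl1 are made as membrane proteins that can tether cells and be shed. Cxcl16, the ligand of CXCR6, had 7.6, 7.1 and 7.6 in P12.5 male grafts, 8.3, 7.8 and 7.9 in NP male grafts, 7.0, 7.7 and 8.0 in P12.5 female grafts and 7.6, 7.5 and 7.6 in NP female grafts, against 6.1, 5.9, 5.7 and 5.7 in P12.5 islets and 6.1, 6.1, 6.0 and 5.9 in NP islets. Grafts lay between 7.0 and 8.3 and islets between 5.7 and 6.1. Cxcl16 rose by 1.58 ± 0.19 in P12.5 male grafts (adjusted p = 4.03e-05) and 1.98 ± 0.19 in NP male grafts (adjusted p = 2.46e-06). It was 1.72 ± 0.19 in P12.5 female grafts (adjusted p = 2.61e-05) and 1.54 ± 0.19 in NP female grafts (adjusted p = 4.82e-05). Cx3cl1 (fractalkine), the ligand of CX3CR1 on monocytes, had 8.0, 7.8 and 8.1 in P12.5 male grafts, 7.8, 7.1 and 7.5 in NP male grafts, 7.4, 7.9 and 8.9 in P12.5 female grafts and 7.9, 7.8 and 7.5 in NP female grafts, against 7.0, 7.2, 7.0 and 7.2 in P12.5 islets and 7.4, 7.4, 7.4 and 7.2 in NP islets. At P12.5 grafts and islets stood apart, and in NP male grafts they overlapped. Cx3cl1 rose by 0.87 ± 0.24 in P12.5 male grafts (adjusted p = 0.0222) and 0.97 ± 0.24 in P12.5 female grafts (adjusted p = 0.0215). The male call was lost without P12.5 islet array 1 or 3 or male graft array 1 or 3 (adjusted p up to 0.107), and the female call without islet array 3 or without female graft array 3 (0.55, adjusted p = 0.109).

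Ligands that attract neutrophils and eosinophils were not called. None of the 5 CXCR2 ligands (Cxcl1, Cxcl2, Cxcl3, Cxcl5 and Cxcl15) passed in any graft comparison, and their changes lay between -0.46 for Cxcl15 and 0.25 for Cxcl5. The eotaxins Ccl11, Ccl24 and Ccl26, ligands of the eosinophil receptor CCR3, had changes between -0.41 and 0.26. Ccl1, Ccl17, Ccl20 and Ccl22 were listed as ligands of CCR4, CCR6 and CCR8, which attract regulatory, Th2 and Th17 cells. Among these only Ccl22 was called. Ccl22, a product of dendritic cells, had 5.2, 5.6 and 4.9 in P12.5 male grafts, 6.8, 5.4 and 6.1 in NP male grafts, 5.3, 5.6 and 6.1 in P12.5 female grafts and 5.6, 5.5 and 5.4 in NP female grafts, against 5.1, 4.9, 5.0 and 5.4 in P12.5 islets and 5.1, 5.3, 5.3 and 5.5 in NP islets. NP male arrays 1 and 3 were high, and array 2 overlapped the islets. Ccl22 rose by 0.80 ± 0.25 in NP male grafts (adjusted p = 0.0268), and the call was lost without NP islet array 1 or male graft array 1 or 3 (0.45, adjusted p = 0.17, without male array 1). Ccl1, Ccl17 and Ccl20 were not called, with changes between -0.55 (Ccl20) and 0.51 (Ccl17), nor was the mucosal ligand Cxcl17 (-0.21 to -0.13).

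Receptors of myeloid cells gave 1 strong and 1 weak call. Ccr2, the receptor of inflammatory monocytes, had 5.6, 5.7 and 6.2 in P12.5 male grafts, 7.2, 6.7 and 6.7 in NP male grafts, 5.3, 5.8 and 6.8 in P12.5 female grafts and 6.5, 6.3 and 6.0 in NP female grafts, against 4.5, 4.3, 4.8 and 4.7 in P12.5 islets and 4.7, 4.5, 4.3 and 4.6 in NP islets. All 12 graft arrays were above all 8 islet arrays. Ccr2 rose by 1.26 ± 0.26 in P12.5 male grafts (adjusted p = 0.0039) and 2.34 ± 0.26 in NP male grafts (adjusted p = 1.06e-05). It rose by 1.39 ± 0.26 in P12.5 female grafts (adjusted p = 0.00332) and 1.74 ± 0.26 in NP female grafts (adjusted p = 0.000197). Ccr1, found on monocytes, macrophages and neutrophils, had 4.1, 3.8 and 4.2 in P12.5 male grafts, 4.3, 4.2 and 4.6 in NP male grafts, 3.9, 4.2 and 4.4 in P12.5 female grafts and 4.0, 4.1 and 4.1 in NP female grafts, against 3.9, 3.8, 3.7 and 3.7 in P12.5 islets and 3.9, 3.6, 3.7 and 3.6 in NP islets. NP male grafts and NP islets did not overlap, but all 20 values were low, under the lower quartile of the arrays. Ccr1 rose by 0.67 ± 0.13 in NP male grafts (adjusted p = 0.00123), and its change fell under 1.5-fold without male graft array 3 (0.55, adjusted p = 0.0109). Ccr3 of eosinophils and Cxcr1 and Cxcr2 of neutrophils were called nowhere, with changes between -0.53 (Cxcr1) and 0.13 (Ccr3).

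Among lymphocyte receptors, Cxcr3 and Cxcr6 rose in all 4 comparisons. Cxcr3, carried by activated T cells and NK cells, had 7.0, 6.9 and 6.8 in P12.5 male grafts, 8.0, 7.5 and 7.3 in NP male grafts, 6.5, 6.7 and 7.0 in P12.5 female grafts and 7.1, 6.8 and 7.0 in NP female grafts, against 5.9, 5.7, 5.7 and 5.8 in P12.5 islets and 5.7, 5.6, 5.6 and 6.0 in NP islets. Its 12 graft values were all at 6.5 or above, and its 8 islet values at 6.0 or below. Cxcr3 rose by 1.12 ± 0.15 in P12.5 male grafts (adjusted p = 0.000136) and 1.88 ± 0.15 in NP male grafts (adjusted p = 3.92e-07). It rose by 0.96 ± 0.15 in P12.5 female grafts (adjusted p = 0.000858) and 1.24 ± 0.15 in NP female grafts (adjusted p = 4.59e-05). Cxcr6, carried by memory T cells, NK cells and NKT cells, had 5.6, 5.5 and 5.3 in P12.5 male grafts, 6.2, 5.6 and 5.8 in NP male grafts, 5.3, 5.4 and 5.4 in P12.5 female grafts and 5.6, 5.3 and 5.7 in NP female grafts, against 4.7, 4.4, 4.5 and 4.5 in P12.5 islets and 4.8, 4.4, 4.8 and 4.8 in NP islets. Here too grafts and islets stood apart. The change was 0.94 ± 0.14 in P12.5 male grafts (adjusted p = 0.000366) and 1.17 ± 0.14 in NP male grafts (adjusted p = 2.51e-05). It was 0.84 ± 0.14 in P12.5 female grafts (adjusted p = 0.00143) and 0.83 ± 0.14 in NP female grafts (adjusted p = 0.000527).

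Cxcr4, a receptor of most leukocytes and many stem and endothelial cells, had 7.4, 7.1 and 7.7 in P12.5 male grafts, 8.3, 8.5 and 7.9 in NP male grafts, 6.9, 7.7 and 7.5 in P12.5 female grafts and 7.5, 7.4 and 7.4 in NP female grafts, against 6.4, 6.6, 6.6 and 6.7 in P12.5 islets and 6.8, 7.0, 6.9 and 6.7 in NP islets. Male NP grafts were highest, and each graft group lay above its islets. Cxcr4 rose by 0.82 ± 0.17 in P12.5 male grafts (adjusted p = 0.0048), 1.38 ± 0.17 in NP male grafts (adjusted p = 3.78e-05) and 0.79 ± 0.17 in P12.5 female grafts (adjusted p = 0.011). In NP female grafts the change was 0.58 ± 0.17 (adjusted p = 0.0201), just under 1.5-fold. The P12.5 female call was lost without female graft array 2 or 3 (adjusted p = 0.0662 and 0.0669).

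Ccr7, Ccr8 and Cxcr5 were called against islets in NP male grafts and in no other graft group. Ccr7, which takes naive T cells and mature dendritic cells to lymph nodes, had 6.8, 7.1 and 6.0 in P12.5 male grafts, 7.9, 7.5 and 7.5 in NP male grafts, 6.4, 7.0 and 7.1 in P12.5 female grafts and 6.6, 6.8 and 6.6 in NP female grafts, against 6.2, 5.7, 6.0 and 6.5 in P12.5 islets and 6.1, 6.2, 6.4 and 6.4 in NP islets. The NP male arrays were above all others, and P12.5 grafts overlapped P12.5 islets. Ccr7 rose by 1.36 ± 0.23 in NP male grafts (adjusted p = 0.000449). In P12.5 female grafts its change of 0.73 was past 1.5-fold but not called. There it passed with the mean of a gene's probe sets (adjusted p = 0.0378). It also passed without P12.5 islet array 4 (0.87, adjusted p = 0.0494) or without P12.5 female graft array 1 (0.95, adjusted p = 0.03). Ccr8, known from regulatory and Th2 cells, had 4.3, 4.5 and 4.2 in P12.5 male grafts, 6.0, 5.6 and 4.8 in NP male grafts, 4.2, 4.3 and 4.5 in P12.5 female grafts and 4.4, 4.4 and 4.5 in NP female grafts, against 4.3, 4.3, 4.6 and 4.4 in P12.5 islets and 4.3, 4.4, 4.5 and 4.4 in NP islets. The NP male values spread from 4.8 to 6.0, while the other 17 arrays lay between 4.2 and 4.6, under the lower quartiles of the arrays. Ccr8 rose by 1.07 ± 0.18 in NP male grafts (adjusted p = 0.000567). Cxcr5, the follicular homing receptor of B cells and helper T cells, had 4.2, 4.1 and 4.0 in P12.5 male grafts, 4.5, 5.2 and 4.9 in NP male grafts, 3.7, 4.0 and 3.8 in P12.5 female grafts and 4.3, 4.4 and 4.3 in NP female grafts, against 4.2, 4.1, 3.9 and 4.1 in P12.5 islets and 4.0, 4.1, 4.1 and 4.0 in NP islets. The NP male arrays were again the highest of the 20, and the others lay at 4.4 or below, under the lower quartiles of the arrays. Cxcr5 rose by 0.82 ± 0.13 in NP male grafts (adjusted p = 0.000215). Ccr4, Ccr6, Ccr9 and Ccr10 were not called in any comparison with islets (changes between -0.41 and 0.51).

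**Figure D2:**
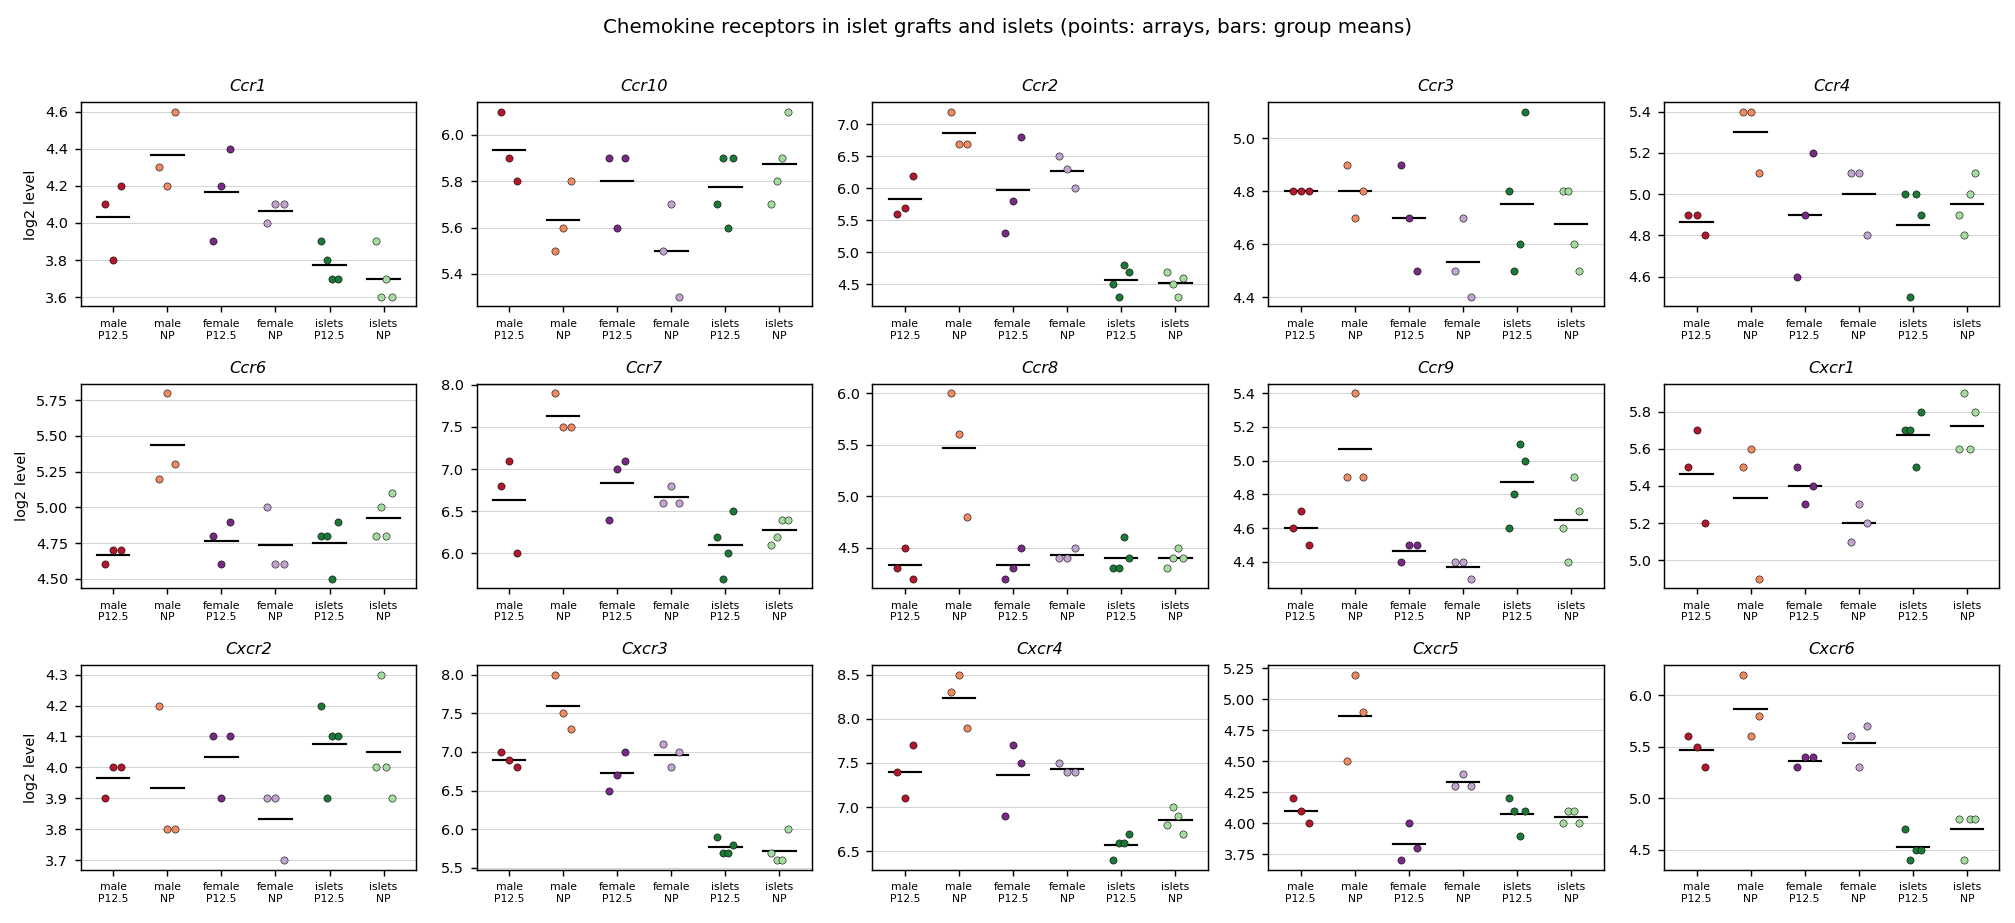
Log2 level (vertical axis, own scale in each panel) of the 15 receptors in the 6 groups. Each point is 1 array and each bar a group mean. In 11 of the 15 panels the NP male grafts have the highest mean.

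Markers of several leukocyte types were also higher in grafts. The macrophage and dendritic cell list (14 genes, such as Adgre1, Csf1r and C1qa) averaged 7.06 to 8.19 in graft arrays and 5.84 to 6.04 in islet arrays, with 12 of 14 called higher in P12.5 grafts and 13 of 14 in NP grafts of each sex. T and NK cell markers (10 of 12 listed were measured) averaged 5.94 to 6.91 in NP male grafts, 5.35 to 5.82 in the other grafts and 4.90 to 5.10 in islets. B cell markers (7 of 8 measured) averaged 5.66 to 6.04 in NP male grafts and 4.80 to 5.16 in all other arrays. Neutrophil markers (8 genes) averaged 4.85 to 5.26 in all 20 arrays. Stromal markers averaged 8.29 to 10.25 in grafts and 6.16 to 6.75 in islets, and kidney markers 6.04 to 8.86 in grafts and 5.45 to 5.58 in islets. Acinar markers ran the other way, at 5.23 to 5.61 in grafts and 8.40 to 10.74 in islets. Endothelial markers averaged 6.47 to 8.03 in grafts and 7.59 to 7.84 in islets. The part of these cells in the chemokine values was not tested.

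**Figure D3:**
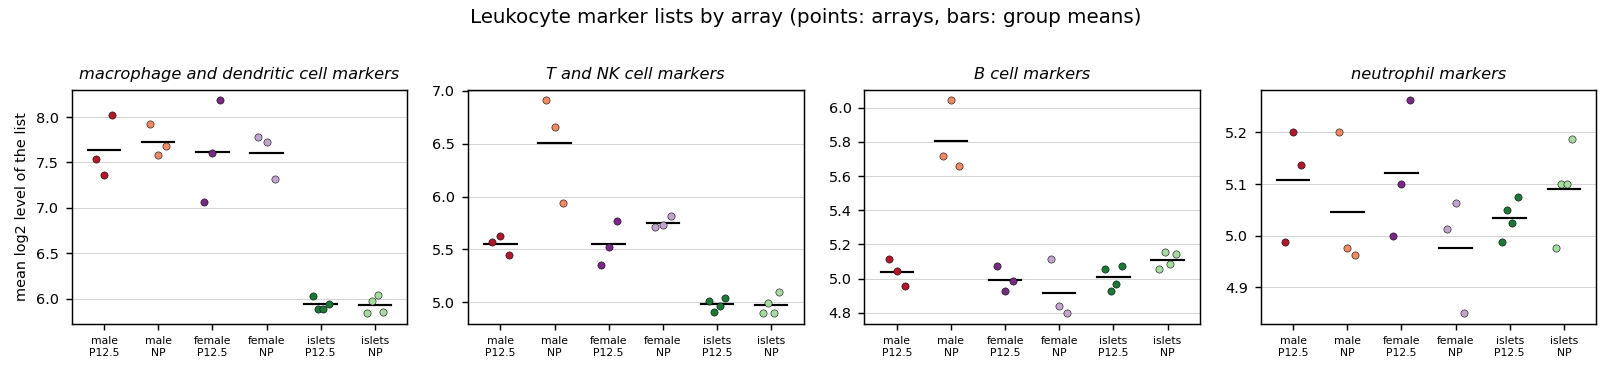
Mean log2 level (vertical axis, own scale in each panel) of 4 leukocyte marker lists in the 6 groups. Each point is 1 array and each bar a group mean. NP male grafts stand apart for the B cell list, at 5.66 to 6.04.

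Pregnancy left the members of islets in the pancreas without a call (limma, 0 of 48, against 0.724% of all probe sets). At an unadjusted p under 0.05 there were 3 members, against 11.8% of probe sets. The largest changes were those of Cxcl10 and Cxcl11. Cxcl10 had 5.5, 5.5, 5.1 and 6.6 in P12.5 islets and 5.1, 5.2, 5.0 and 5.8 in NP islets. The groups overlapped, with a change of 0.40 ± 0.30 (adjusted p = 0.691). Cxcl11 had 5.2, 5.3, 5.2 and 5.5 in P12.5 islets and 5.1, 4.7, 4.9 and 5.1 in NP islets. It was the only member whose groups did not overlap (5.47% of probe sets), and its change was 0.35 ± 0.11 (adjusted p = 0.229). The medians over ligands and over receptors were both 0.00.

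In female grafts pregnancy likewise gave no call (limma, 0 of 48, against 1.7%), with 6 members at an unadjusted p under 0.05 (21.2% of probe sets). The 2 largest changes were those of Cxcl10 and Cxcl13. Cxcl10 had 7.6, 7.4 and 7.5 in P12.5 female grafts and 7.1, 6.5 and 6.8 in NP female grafts. All P12.5 arrays were above all NP arrays, with a change of 0.70 ± 0.29 (adjusted p = 0.192). Cxcl13 had 6.2, 5.8 and 6.8 in P12.5 female grafts and 5.9, 5.7 and 5.5 in NP female grafts. These groups overlapped, with a change of 0.57 ± 0.35 (adjusted p = 0.391). In all, 5 members did not overlap, 4 of them higher and 1 (Cxcr5) lower, against 21.1% of probe sets. Kidney markers averaged 6.04 to 7.29 in P12.5 and 7.98 to 8.86 in NP female grafts, and their part was not tested. The split of all calls into higher and lower was 297 and 305, and 202 and 338 once array medians were subtracted.

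In male grafts the member values were lower at P12.5 for many genes, and 1 member passed the test (0.932% of all probe sets were called, 0.453% lower). Cxcr5 had 4.2, 4.1 and 4.0 in P12.5 male grafts and 4.5, 5.2 and 4.9 in NP male grafts. The groups did not overlap, and the change was -0.77 ± 0.16 (adjusted p = 0.0483). Cxcr5 did not exceed 5.2 in any array, and its P12.5 male values lay under the lower quartiles of the arrays (4.7 to 4.9). The call was close to the threshold: it was lost without P12.5 male array 1, 2 or 3 and without NP male array 2 or 3 (adjusted p between 0.0611 and 0.138, change between -0.82 and -0.60). Ccr8, with 4.3, 4.5 and 4.2 in P12.5 male grafts and 6.0, 5.6 and 4.8 in NP male grafts, changed by -1.13 ± 0.24 (adjusted p = 0.051) and did not pass. Without NP male array 3 it did (-1.47, adjusted p = 0.00608), as did Ccr6 without NP male array 1 (-0.88, adjusted p = 0.0469). Of the 48 members 18 were lower at P12.5 without overlap (9 of 33 ligands and 9 of 15 receptors) and 3 were higher (Ccl20, Cxcl11 and Cxcl14), where 18.1% of all probe sets did not overlap in either direction. At an unadjusted p under 0.05 there were 22 members, against 19.5% of probe sets. The median change was -0.47 over the receptors and 0.00 over the ligands, beside 0.00 over all genes.

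The ligands with the largest differences in male grafts were Ccl8 (-1.33 ± 0.36, adjusted p = 0.0941) and Cxcl9 (-1.33 ± 0.37, adjusted p = 0.102), whose values are given above and do not overlap. Neither passed the test. A fit that took its spread from all 20 arrays called 12 members lower (Ccl5, Ccl8, Ccl17, Ccl19, Cxcl9, Ccr2, Ccr6, Ccr7, Ccr8, Cxcr3, Cxcr4 and Cxcr5), where it called 600 of all probe sets lower, against 161 in the fit to the graft arrays. For all probe sets the split into higher and lower was 170 and 161, and 127 and 415 once array medians were subtracted. T and NK markers averaged 5.45 to 5.63 in P12.5 male grafts and 5.94 to 6.91 in NP male grafts, B cell markers 4.96 to 5.11 in P12.5 and 5.66 to 6.04 in NP male grafts, and macrophage and dendritic cell markers 7.36 to 8.03 in P12.5 and 7.58 to 7.93 in NP male grafts. Their part in the differences was not tested.

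Over both donor sexes, with sex in the model, 2 of 48 members were called, both receptors and both lower. Of all probe sets 3.96% were called (2% lower), and so small a count does not set the members apart from that share. Cxcr5 had 4.2, 4.1 and 4.0 in P12.5 male grafts and 3.7, 4.0 and 3.8 in P12.5 female grafts, and 4.5, 5.2 and 4.9 in NP male grafts and 4.3, 4.4 and 4.3 in NP female grafts. All P12.5 grafts were below all NP grafts, with a change of -0.63 ± 0.11 (adjusted p = 0.00785). Without NP male array 2 the change was -0.55 (adjusted p = 0.0158), under 1.5-fold. Ccr8 changed by -0.62 ± 0.17 (adjusted p = 0.0357). Its female grafts lay at 4.2 to 4.5 (P12.5) and 4.4 to 4.5 (NP), and its male grafts at 4.2 to 4.5 and 4.8 to 6.0. The female groups overlapped and the male groups did not. Leaving out any 1 array other than NP male array 3 ended the call (adjusted p between 0.0427 and 0.0781 and changes between -0.66 and -0.48). Cxcr3, Cxcl11 and Ccl20 passed the adjusted p but not the fold. The split of all calls was 699 higher and 709 lower, and 525 and 1077 once array medians were subtracted.

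**Figure D4:**
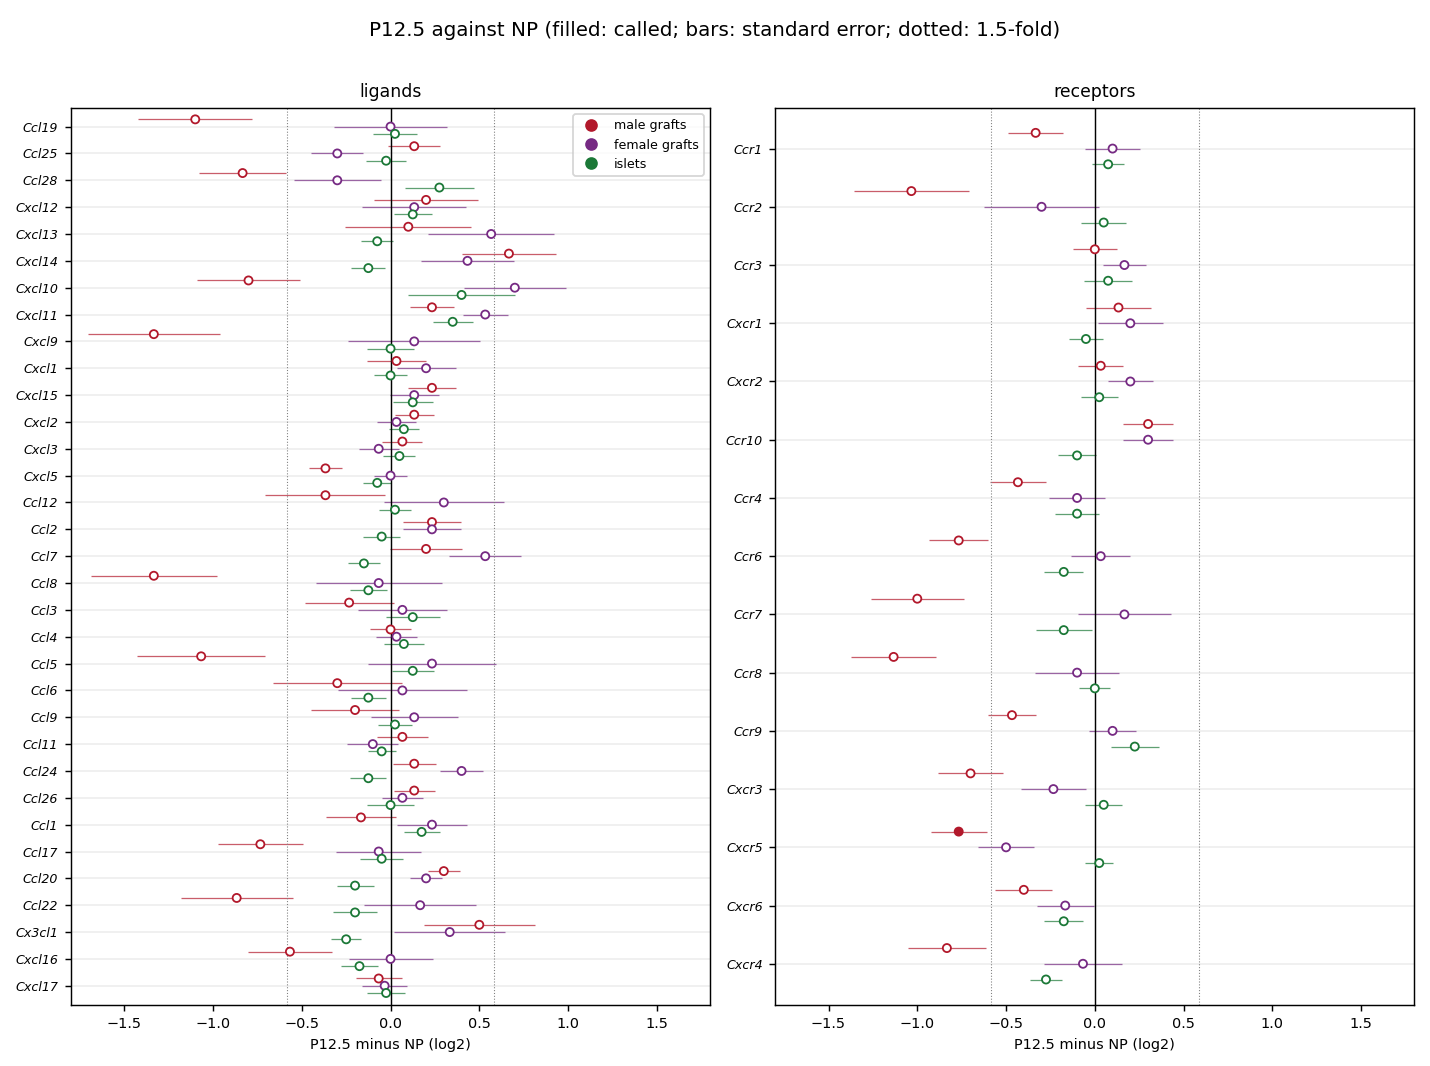
Change in log2 level (horizontal axis, P12.5 minus NP) of the 33 ligands and 15 receptors in male grafts, female grafts and islets. Points are fitted changes with standard error bars, filled where called, and dotted lines mark 1.5-fold. Cxcr5 in male grafts is the filled point, at -0.77.

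Donor sex gave no called member, in P12.5 grafts (0 of 48, against 0.0113% of probe sets) or in NP grafts (0 of 48, against 0.0141%). In the NP state all 15 receptors had a higher mean in male grafts, with a median difference of 0.53 (male minus female). In 9 receptors and 6 ligands the groups did not overlap, 15 of 48 members where 5.62% of all probe sets did so, and 12 members had an unadjusted p under 0.05 (5% of probe sets). The receptors without overlap were Ccr1, Ccr2, Ccr6, Ccr7, Ccr8, Ccr9, Cxcr3, Cxcr4 and Cxcr5 and the ligands Ccl5, Ccl8, Ccl19, Cxcl9, Cxcl10 and Cxcl16. The largest differences were 1.33 ± 0.37 for Cxcl9 (adjusted p = 0.756) and 1.30 ± 0.36 for Ccl5 (adjusted p = 0.754). Ccr6, which guides B cells and Th17 cells, had 5.2, 5.8 and 5.3 in NP male grafts and 5.0, 4.6 and 4.6 in NP female grafts. Ccr9, the gut and thymus homing receptor, had 4.9, 5.4 and 4.9 in NP male grafts and 4.4, 4.4 and 4.3 in NP female grafts. The male arrays were above the female arrays for both, by 0.70 ± 0.17 (Ccr6, adjusted p = 0.68) and 0.70 ± 0.13 (Ccr9, adjusted p = 0.553). Without NP male array 3, Ccr8 passed the test (1.37, adjusted p = 0.0131). Ms4a1, 1 of 7 measured B cell markers, was among the 5 probe sets called in this comparison (1.53 higher in NP male grafts). The marker levels above also differ between the same arrays. Their part was not tested. In P12.5 grafts 0 members were higher and 2 lower without overlap (5.41% of probe sets), and 0 had an unadjusted p under 0.05 (3.58%).

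Whether pregnancy acted differently on the members in male and female grafts, or in grafts and islets, was tested as an interaction, and no member was called in any of the 3 tests. For donor sex 0% of probe sets passed. The members' median difference of effects (male minus female) was -0.33, and the most negative were those of Cxcl10 (-1.50 ± 0.41, adjusted p = 0.955) and Cxcl9 (-1.47 ± 0.53, adjusted p = 0.955). At an unadjusted p under 0.05 there were 12 members, against 4.99% of probe sets. For grafts against islets, 0.0507% of probe sets passed with female grafts and 0.605% with male grafts. The members nearest to a call were Cxcr5 (-0.79 ± 0.18, adjusted p = 0.0514) and Ccr8 (-1.13 ± 0.26, adjusted p = 0.0539), both with male grafts. Cxcr5 passed without P12.5 male array 1 (-0.84, adjusted p = 0.0446) or NP male array 1 (-0.98, adjusted p = 0.0101), and Ccr8 without NP male array 3 (-1.47, adjusted p = 0.000717). With male grafts the split of all calls was 80 higher and 135 lower, and 62 and 481 once array medians were subtracted. With female grafts it was 12 higher and 6 lower, and 4 and 6 once medians were subtracted. At an unadjusted p under 0.05 there were 5 members (14.1% of probe sets) with female grafts and 21 (16.2%) with male grafts.

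Other genes of the chemokine system were read from a list of 13. In grafts against islets, 4 of 13 rose in P12.5 male, P12.5 female and NP female grafts and 5 of 13 in NP male grafts, and none fell. Rarres2, which encodes the macrophage attractant chemerin, rose in all 4 comparisons (by 2.07 in P12.5 female grafts), and Cx3cr1, the fractalkine receptor of monocytes, rose by 1.00 to 1.36. Pf4, a platelet and macrophage chemokine, rose by 0.87 to 1.32. Of 14 measured adhesion genes 10 rose in each of the 4 comparisons, among them Vcam1 (2.08 to 2.19), which holds rolling leukocytes on endothelium, and Itgb2 (1.81 to 2.70), the shared chain of leukocyte integrins. Of 14 measured genes of receptor signalling 4 rose in P12.5 male grafts, 8 in NP male, 5 in P12.5 female and 6 in NP female grafts. Dock2, which links chemokine receptors to Rac in lymphocytes, rose by 1.32 to 2.38. Among 18 measured cytokine and NF-κB genes 1 rose in P12.5 male, 8 in NP male, 2 in P12.5 female and 2 in NP female grafts. Over all genes 5.79% rose in P12.5 male, 6.88% in NP male, 4.03% in P12.5 female and 6.5% in NP female grafts, so that 1 of 18 lay near the background. Ltb, a lymphotoxin chain, and Irf1, an interferon-response factor, were among the 8 (1.24 and 1.03).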

How the data were processed

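Total RNA of islets and islet grafts was hybridised to Affymetrix MoGene 1.0 ST arrays (20 arrays, 1 per sample, labelled as biological replicates without naming animals, so that the tests read the spread among arrays of a group, which may be technical). The deposited log2 values had been made by the authors with RMA background correction, quantile normalization and summarisation in aroma.affymetrix, and were rounded to 0.1. Of 35511 probe sets, 21789 carried 1 gene symbol in the platform annotation, 1621 several and 12101 none. Group means were fitted with limma 3.58.1 in R 4.3.3 over all probe sets and compared by moderated statistics (lmFit and eBayes, two-sided), with Benjamini-Hochberg adjustment over all probe sets. Comparisons among grafts used the 12 graft arrays, those among islets the 8 islet arrays, and grafts against islets all 20. Errors are standard errors of the fit. Each fit shared 1 estimate of the spread per probe set among its groups. The errors and p-values of grafts against islets therefore do not show where grafts spread more than islets. For Ccl8 the standard deviation was 0.92 in P12.5 female grafts and 0.13 in P12.5 islets. Precision is limited by how few arrays each group had. The fits were tested on simulated data. Values per array are given for members called in any comparison and for the 2 largest changes in pregnancy comparisons without a call. Other members are given by counts and ranges. The members, gene lists and tests were chosen with earlier results of these data known. Alternatives tried were array medians subtracted, a second quantile normalization, dim probe sets left out, a variance trend, the mean of a gene's probe sets, other arrays in the fit, the replicate number as a block, and each array left out in turn. Promoter windows and gene order came from RefSeq (GRCm38.p6). The genome build behind the array annotation is not given in the sources used here.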

Additional observations from a re-analysis of the deposited data

Results flagged for a closer look

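In NP islets 3 single arrays stood apart from the other 3 of their group, a pattern that chance alone flags in about 1 in 20 groups. The 24 members called against islets were screened in both islet groups, except where values ranged over no more than 0.1. A few flags would therefore come by chance. The rate of 1 in 20 holds for values without rounding. Ccl19 was 6.1 in array 1 and 6.6 in the others. Cx3cl1 was 7.2 in array 4 and 7.4 in the others. Cxcr6 was 4.4 in array 2 and 4.8 in the others. To the rounding of 0.1, the remaining arrays had the same value in each case.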

How the results depend on the processing

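Of 72 called values, 56 kept their call under each alternative run for them, and no direction reversed. Leaving out dim probe sets could not be run for Ccr8 and Cxcr5 in NP male grafts, which are among the 56, since it drops them. In grafts against islets the number of members called stayed within 1.5 times its value under each alternative (leaving out 1 array: 14 to 16 in P12.5 male, 20 to 24 in NP male, 11 to 18 in P12.5 female and 12 to 16 in NP female grafts). In male grafts P12.5 against NP, 1 member was called, but 4 with array medians subtracted, 3 after a second quantile normalization, 3 with the mean of a gene's probe sets, 12 with all 20 arrays in the fit and 0 to 2 when 1 array was left out. Over all probe sets this comparison had 331 calls, and 542, 366, 206 (of 19938 genes) and 1059 in the same 4 settings, and 46 to 479 when 1 array was left out. Over both sexes 2 were called, but 0 with dim probe sets left out (which drops Ccr8 and Cxcr5), 4 with all 20 arrays in the fit and 0 to 3 when 1 array was left out, where all probe sets gave 1408, and 1228 and 1685 in those 2 settings. In NP male against female grafts 0 to 1 were called when 1 array was left out. The interaction of pregnancy with male grafts against islets gave 0 members, but 4 with array medians subtracted, 2 after a second quantile normalization, 2 with the mean of a gene's probe sets, 1 with only the groups compared in the fit and 0 to 1 when 1 array was left out, where all probe sets gave 215, and 543, 242, 156 (of 19938 genes) and 255 in those 4 settings. The cause of these moves was not tested. With the replicate number as a block (replicate block), male grafts had 0 members called (124 of all probe sets) and both sexes 1 (1287). The block also ended the calls of Ccl3 in P12.5 male grafts, of Ccl12, Cx3cl1 and Cxcl12 in P12.5 female grafts and of Ccl19 in NP female grafts against islets. Fitting only the groups compared ended the calls of Ccl12 (adjusted p = 0.0904), Cx3cl1 (0.0939) and Cxcl12 (0.0591) in P12.5 female grafts and of Ccl22 (0.075) and Ccl28 (0.0645) in NP male grafts against islets. The labels tie no number to an animal, litter or day. In no pair of groups was every same-numbered correlation of deviations over 0.1 (r between -0.242 and 0.375), so the numbers were taken as names. In P12.5 male and female grafts each array did correlate best with its own number (0.042, 0.278 and 0.375), a hint from the data and not from the design.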
